A study of Danio rerio with 72 samples.

Results

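The stress response of the adult hypothalamus was measured in 12 RNA-seq libraries of SR4G zebrafish that had been raised in vehicle, out of 72 libraries in the series. The members were chosen by their labels alone: 6 hypothalamus libraries from stressed vehicle fish and 6 from unstressed vehicle fish. SR4G fish carry a reporter of glucocorticoid action: a short-lived form of green fluorescent protein under glucocorticoid response elements, whose transcript d4EGFP is counted beside the endogenous genes. Every fish carried this transgene, and every vehicle fish had been kept in 0.0053% ethanol from fertilization to day 6. Each library was made from a pool of 5 hypothalami of fish aged 6 months. The comparison groups were 12 hypothalamus libraries of fish raised over the same days in 54 ug/L fluoxetine, an antidepressant that blocks serotonin reuptake, again 6 stressed and 6 unstressed, and 12 telencephalon libraries of vehicle fish, 6 stressed and 6 unstressed. The kind of stressor, the time between stress and dissection, the time of day and the sex of the fish were not stated in the labels. The labels do not say whether pools came from separate tanks, so the p-values below measure the spread between these pools, which may be partly technical.

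The hypothalamus is both the start and a target of the hormonal stress axis. Its neurons release corticotropin-releasing hormone, the pituitary answers with corticotropin, and the fish interrenal gland releases cortisol, which returns to the brain and acts through the glucocorticoid receptor (NR3C1) and the mineralocorticoid receptor (NR3C2). Ligand-bound receptors enter the nucleus and raise or lower transcription of genes that damp cytokine signalling, mobilise glucose and limit the hormone signal itself, while other hypothalamic neurons govern feeding, reproduction, thyroid drive and daily rhythms.

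Total counts had a median of 18.6 M in the stressed libraries (17 to 20.8 M) and of 16.65 M in the unstressed ones (up to 18.3 M). Transcripts of the mitochondrial genome took 12.5 to 16% of counts in stressed libraries and 15.8 to 16.9% in unstressed libraries, and whether depth or this share plays a part in the results was not tested. Markers of the region were present: ISL1, a homeobox gene of ventral hypothalamic neurons, had a median of 139 CPM (reads counted per M reads of the TMM-scaled library) in the unstressed hypothalamus and 22.9 CPM in the unstressed telencephalon. The homeobox gene GSX1 had medians of 92.1 and 0.298 CPM in the same groups. Stressed replicate 1 stood apart from its group. On the first principal component of the 12 libraries, which held 41.9% of the variance, it lay at -25.08, inside the unstressed range of -61.53 to -10.83, while the other 5 stressed libraries lay between 14 and 70.39. Library numbers in the labels run from 1 to 24 for replicates 1 to 3 and from 25 to 48 for replicates 4 to 6, and both ranges hold both groups.

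Stress was followed by a wide change. Of 18380 genes tested, 6762 (36.8%) passed edgeR's quasi-likelihood test at a Benjamini-Hochberg adjusted p of 0.05, 3722 higher (20.3%) and 3040 lower (16.5%) in stressed fish. The rises were larger than the falls: 1480 genes (8.05%) were at least 2-fold higher and 122 (0.664%) at least 2-fold lower, and 113 (0.615%) and 13 (0.0707%) were at least 4-fold higher and lower. The stressed and unstressed libraries did not overlap at all for 1556 genes (8.47%), 643 with stressed fish higher (3.5%) and 913 lower (4.97%). The split depends on the scaling of libraries. With total counts in place of TMM factors 4202 genes were higher and 1937 lower, so that 68.4% of calls were rises in place of 55%, and the median log2 change of all tested genes was 0.07 in place of -0.01. Only 1645 genes passed within libraries 1 to 24 (924 higher, 721 lower) and 3695 within libraries 25 to 48 (2102 higher, 1593 lower). Stressed replicate 1 was the lowest of its group in 2652 of the 3722 genes that rose (71.3%) and the highest in 1426 of the 3040 that fell (46.9%). The gene lists below are read against the shares over all genes, 20.3% higher and 16.5% lower.

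**Figure D1:**
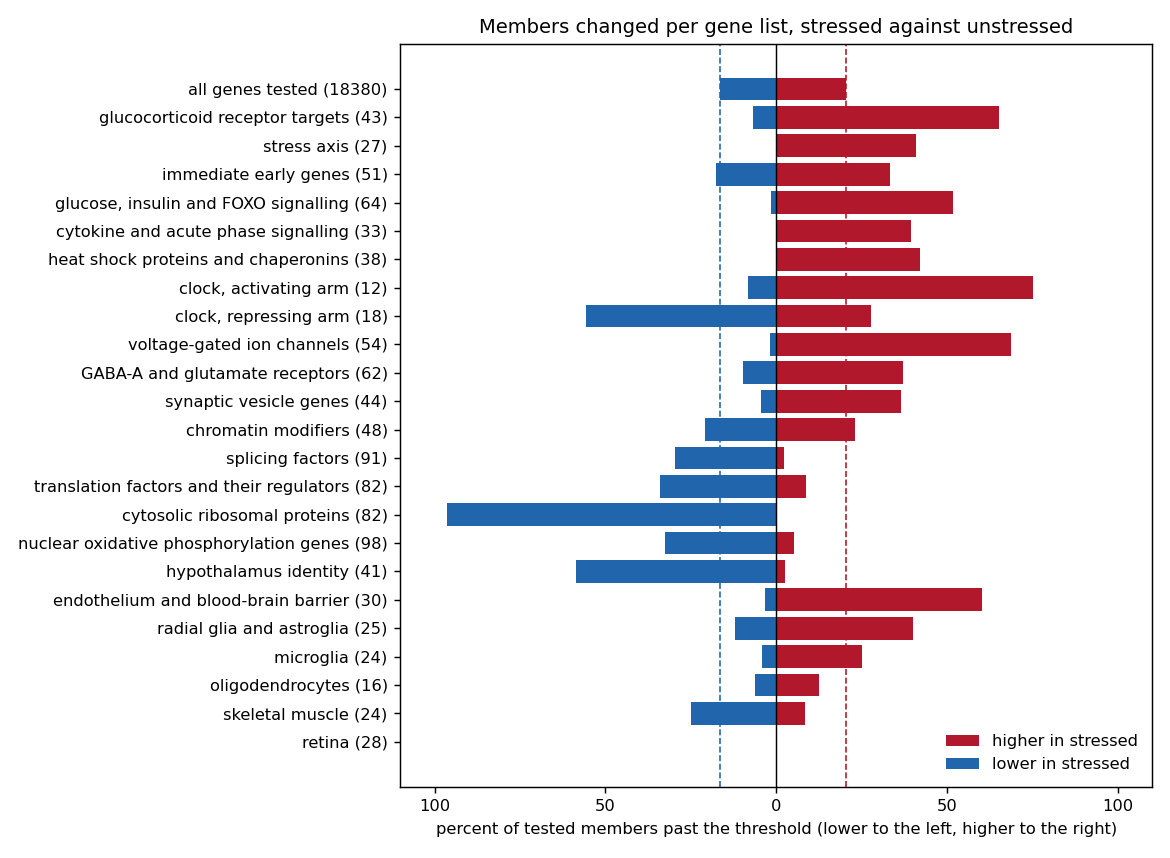
Percent of tested members of each gene list that passed the threshold (edgeR, adjusted p 0.05) in vehicle hypothalamus, with members higher in stressed fish to the right and members lower to the left; the number of tested members is in brackets and dashed lines mark the shares over all 18380 genes (20.3% higher, 16.5% lower). Clock activators, voltage-gated channels, glucocorticoid receptor targets and endothelial genes reach farthest to the right, and ribosomal proteins and hypothalamus identity genes farthest to the left.

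Most tested targets of the glucocorticoid receptor rose. Of 43 targets 28 rose, 3 fell and 12 did not pass, with a median log2 change of 0.69, against -0.01 over all genes. The deepest fall, -1.31, was that of PER1 (ENSDARG00000056885), described with the clock below. The transgene reporter d4EGFP ranged from 48.9 to 142.5 CPM in stressed pools (median 105.1), against 21 to 35.7 CPM in unstressed pools (median 31.1). It was 3.28-fold higher (log2 1.71, SE 0.34, adjusted p = 0.000717), and no unstressed pool reached the lowest stressed one. KLF9, a Krüppel-like transcription factor gene under direct control of the receptor, ranged from 74.4 to 140.9 CPM in stressed pools (median 109.5) and from 2.33 to 10.3 CPM in unstressed pools (median 5.58). Its log2 change of 4.21 (SE 0.28, 18.5-fold, adjusted p = 1.01e-10) was the largest among the receptor targets. FKBP5, a co-chaperone that lowers the receptor's affinity for hormone, ranged from 741.5 to 964 CPM in stressed pools (median 792) and from 27.8 to 92.3 CPM in unstressed pools (median 70.8). The log2 change of FKBP5 was 3.70 (SE 0.26, adjusted p = 1.72e-10).

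Enzymes that inactivate cortisol rose as well. HSD11B2, which turns cortisol into cortisone, ranged from 30.1 to 45.1 CPM in stressed pools (median 36.6), against 3.6 to 6.73 CPM in unstressed pools (median 5.4), a 6.96-fold difference (log2 2.80, SE 0.20). The gene hsd20b2, whose product reduces cortisone further in zebrafish, had medians of 15.3 and 5.71 CPM in stressed and unstressed pools (log2 1.45, SE 0.17, adjusted p = 7.65e-07). Feedback regulators of kinase and cytokine signalling followed: SOCS3 (ENSDARG00000025428), an inhibitor of JAK-STAT signalling, ranged from 34.9 to 80.3 CPM against 3.47 to 10.5 CPM (log2 2.99, SE 0.23). DUSP1, a phosphatase of MAP kinases, ranged from 15.8 to 25.3 CPM in stressed pools and from 5.64 to 8.32 CPM in unstressed pools (log2 1.48, SE 0.13). An inhibitor of NF-kappaB, nfkbiab, had medians of 108.1 and 44.4 CPM in stressed and unstressed pools (log2 1.49, SE 0.16). The gene si:dkey-201c13.2, which carries no functional name in the tables used here, rose by 3.51 on the log2 scale (SE 0.21). It had 26.3 to 33.4 CPM in stressed pools and 0.987 to 4 CPM in unstressed pools.

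**Figure D2:**
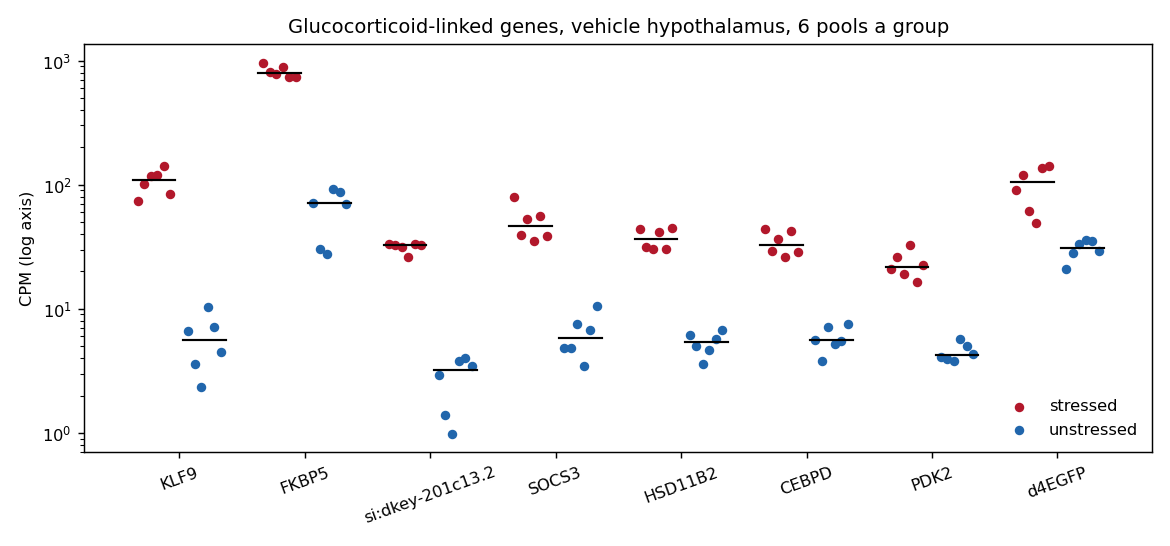
CPM (log axis) of 7 genes and the d4EGFP reporter in each of 6 stressed and 6 unstressed vehicle hypothalamus pools, with horizontal lines at the medians. The groups stay apart in each of the 8, with FKBP5 at 741.5 to 964 CPM in stressed pools against 27.8 to 92.3 CPM in unstressed pools.

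Stressed replicate 1 was the lowest stressed library in 8 of the 28 targets that rose and the highest in 12. Groups did not overlap for 21 of the 28, against 634 of all 3722 genes that rose. Within libraries 1 to 24 alone 24 targets rose, and within libraries 25 to 48 alone 20 did.

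The peptides that start the axis did not pass the test. CRH, the releasing hormone gene, ranged from 20.8 to 43.6 CPM in stressed pools (median 31) and from 31.9 to 39.9 CPM in unstressed pools (median 35.7), with a log2 difference of -0.13 (SE 0.17, adjusted p = 0.591). CRHBP, which binds and sequesters the hormone, had medians of 110.3 and 105.7 CPM in stressed and unstressed pools (log2 -0.01, SE 0.12). POMC, the corticotropin precursor, had medians of 22.5 and 26.7 CPM (log2 -0.32, SE 0.23, adjusted p = 0.269), and avp, the vasotocin precursor, 3.81 and 2.83 CPM (log2 0.69, SE 0.41, adjusted p = 0.193). The glucocorticoid receptor gene NR3C1 ranged from 90.8 to 129.1 CPM in stressed pools and from 96.5 to 140.1 CPM in unstressed pools (log2 -0.09, SE 0.11, adjusted p = 0.52).

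Other members of the axis rose. Of 27 tested genes of the stress axis list 11 rose, none fell and 16 did not pass, with a median log2 change of 0.82. The mineralocorticoid receptor gene NR3C2 ranged from 4.43 to 28.6 CPM in stressed pools (median 10.9), against 2.82 to 7.2 CPM in unstressed pools (median 4.38). Its log2 change was 1.46 (SE 0.39, adjusted p = 0.00603), and the groups overlapped. PCSK1, a prohormone convertase that cuts peptide precursors, ranged from 39.6 to 188.3 CPM in stressed pools (median 146.3) and from 18.2 to 61.2 CPM in unstressed pools (median 45.1), with a log2 change of 1.62 (SE 0.30). CRHR1 and CRHR2, the receptors of the releasing hormone family, rose by 0.92 (SE 0.27) and 1.05 (SE 0.24) on the log2 scale. Oxytocin, oxt, ranged from 26.2 to 121.2 CPM in stressed pools (median 43.5) and from 0.97 to 42.6 CPM in unstressed pools (median 12.9). Its adjusted p of 0.0244 (log2 1.75, SE 0.59) was 0.0667 without stressed replicate 6 and 0.622 within libraries 1 to 24. Without stressed replicate 1 the list had 12 risers, but only 2 members rose within libraries 1 to 24 and 6 within libraries 25 to 48.

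Of 64 tested genes of glucose, insulin and FOXO signalling 33 rose, 1 fell and 30 did not pass, with a median log2 change of 0.41. PDK2 (ENSDARG00000059054), a kinase that holds pyruvate dehydrogenase inactive, ranged from 16.4 to 32.5 CPM in stressed pools, against 3.81 to 5.76 CPM in unstressed pools (log2 2.35, SE 0.15, adjusted p = 7.36e-11). PFKFB4, which sets the level of the glycolytic activator fructose bisphosphate, ranged from 111.1 to 135.1 CPM in stressed pools (median 128.7) and from 32.7 to 40.8 CPM in unstressed pools (median 37.5), with a log2 change of 1.75 (SE 0.11). SLC2A1 (ENSDARG00000001437), a glucose transporter of the blood-brain barrier, ranged from 6.04 to 12.8 CPM in stressed pools and from 0.634 to 5.74 CPM in unstressed pools (log2 1.79, SE 0.35). DDIT4, an inhibitor of mTORC1, had medians of 97.8 and 39.6 CPM in stressed and unstressed pools (log2 1.52, SE 0.16). IGFBP1, which binds insulin-like growth factors, had medians of 16.7 and 5.8 CPM (log2 1.52, SE 0.21). TRIB3, a pseudokinase that binds AKT and is counted here with the endoplasmic reticulum stress genes, ranged from 30.8 to 55.1 CPM in stressed pools and from 10.3 to 15.3 CPM in unstressed pools (log2 1.80, SE 0.14). The groups did not overlap for any of these genes. In the whole list 17 members rose and 3 fell within libraries 1 to 24.

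Oxygen and thyroid hormone genes gave a mixed picture with a few clear rises. In the list of hypoxia and oxidative stress genes 10 of 36 rose (27.8%) and 7 fell (19.4%), against 20.3% and 16.5% over all genes. The list median of 0.03 ran from -0.02 to 0.07 as single libraries were left out. Among those that rose, hif1al, of the hypoxia-inducible factor alpha family, ranged from 114.5 to 131.2 CPM in stressed pools and from 45.6 to 59.6 CPM in unstressed pools (log2 1.23, SE 0.08, adjusted p = 2.87e-11). EPAS1 (ENSDARG00000008697), which encodes another alpha subunit, had medians of 44 and 15.2 CPM (log2 1.53, SE 0.18). DIO2, the deiodinase that makes active thyroid hormone within the brain, ranged from 100.4 to 111.5 CPM in stressed pools (median 107.3), against 27.9 to 61.7 CPM in unstressed pools (median 41). The DIO2 rise was 1.30 on the log2 scale (SE 0.15, adjusted p = 6.25e-07). TRH, the thyrotropin-releasing hormone gene, fell by 0.58 on the log2 scale (SE 0.16, adjusted p = 0.00672), with 62.8 to 118.6 CPM in stressed pools and 127.2 to 182.6 CPM in unstressed pools. Within libraries 25 to 48 the TRH change was -0.65 with an adjusted p of 0.125.

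Of 33 tested cytokine and acute phase genes 13 rose and none fell, with a median log2 change of 0.43. Stressed replicate 5 had the highest mean of the list, 1.01 above the unstressed mean on the log2 scale, against 0.27 to 0.58 in the other stressed libraries. Without it 11 rose and 2 fell, with a median of 0.27, and within libraries 1 to 24 there were 9 rises and 1 fall. Beside SOCS3, CEBPD, a transcription factor gene of the acute phase response, ranged from 26.1 to 44.3 CPM in stressed pools and from 3.82 to 7.55 CPM in unstressed pools (log2 2.57, SE 0.18). STAT3, which carries cytokine signals to the nucleus, ranged from 15.2 to 40.4 CPM in stressed pools, against 5.86 to 13.6 CPM in unstressed pools (log2 1.64, SE 0.21). Several of these genes are also receptor targets, so the lists are not separate counts.

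Of 51 immediate early genes 17 rose (33.3%, against 20.3% over all genes) and 9 fell (17.6%, near the 16.5% over all genes). The median log2 change was 0.14, and 0.07 without stressed replicate 1. FOSB, a partner in the AP-1 transcription factor, ranged from 9.7 to 28.4 CPM in stressed pools (median 18.6) and from 1.2 to 4.19 CPM in unstressed pools (median 2.03), a log2 change of 2.92 (SE 0.28). The zebrafish gene csrnp1a, of a family of nuclear proteins induced by growth signals, had medians of 19.1 and 3.65 CPM (log2 2.45, SE 0.17). In the other direction egr1, a zinc finger gene that follows neuronal activity, ranged from 252.6 to 398.9 CPM in stressed pools, against 494.2 to 650.1 CPM in unstressed pools. It fell by 0.79 on the log2 scale (SE 0.13, adjusted p = 7.71e-05), and its groups did not overlap.

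Chaperone genes of the cytosol and mitochondria rose moderately, 16 of 38 heat shock and chaperonin genes with none lower and a median of 0.18. HSP90AA1, a chaperone of the glucocorticoid receptor complex, rose by 0.80 on the log2 scale (SE 0.10). It ranged from 401 to 522 CPM in stressed pools (median 431) and from 206.9 to 330.4 CPM in unstressed pools (median 243.5). Entries for the constitutive chaperone HSPA8 rose by 1.09 (SE 0.18, ENSDARG00000037403) and 0.39 (SE 0.08, ENSDARG00000068992). HSF2, a heat shock transcription factor gene of the receptor chaperone list (9 higher and 3 lower of 23), fell: it ranged from 57.2 to 81.5 CPM in stressed pools and from 104.9 to 118.5 CPM in unstressed pools (log2 -0.71, SE 0.07, adjusted p = 8.34e-08). Of the endoplasmic reticulum stress genes 7 of 29 rose and 3 fell, near the shares over all genes. The co-chaperone DNAJB11 rose by 0.60 (SE 0.10) and CHAC1, which degrades glutathione, by 0.60 (SE 0.08).

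Genes of protein synthesis were lower. Of 82 tested cytosolic ribosomal protein genes 79 fell and none rose, with a median log2 change of -0.58. RPS28, of the small subunit, ranged from 163.7 to 314 CPM in stressed pools (median 187.1) and from 274 to 492.2 CPM in unstressed pools (median 353.9), and fell by 0.79 on the log2 scale (SE 0.18, adjusted p = 0.00224). RPL3, of the large subunit, fell by 0.49 (SE 0.11). None of the 79 had groups that did not overlap, because stressed replicate 1 was the highest stressed library in each and lay inside the unstressed range. Without it 53 of the 79 were fully apart, against 1443 of all 3040 genes that fell. All 3 stressed and 3 unstressed libraries numbered 1 to 24 gave 0 falls, with a median of -0.39, and libraries 25 to 48 gave 73 falls. Initiation and elongation factors fell in 28 of 82 and rose in 7. EEF1D, an exchange subunit of the elongation factor complex, ranged from 90.6 to 130.1 CPM in stressed pools and from 137.2 to 217.7 CPM in unstressed pools (log2 -0.61, SE 0.12). Among the 7 that rose were EIF4EBP3, which binds the cap-binding factor and blocks initiation (8.97 to 15.1 CPM against 2.49 to 4.77 CPM, log2 1.63, SE 0.18), the cap-binding factor gene eif4e1c (log2 0.82, SE 0.10) and the helicase gene eif4a1a (log2 0.79, SE 0.09).

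Nuclear genes of oxidative phosphorylation fell in 32 of 98 and rose in 5, with a median of -0.24. Stressed replicate 1 was the highest stressed library in 31 of the 32. Without it 54 fell, without stressed replicate 5 only 17, and with total-count scaling 16. Within libraries 1 to 24 none fell. SDHA, the catalytic subunit of succinate dehydrogenase, was among the 5 that rose, with 508.9 to 573.6 CPM in stressed pools and 364.2 to 399.4 CPM in unstressed pools (log2 0.52, SE 0.06, adjusted p = 1.17e-06).

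Splicing genes fell more often than they rose, 27 lower and 2 higher of 91, and 19 lower and 7 higher with total-count scaling. SNRPF, a core protein of spliceosomal particles, fell by 0.62 (SE 0.13), with medians of 16.1 and 24.8 CPM in stressed and unstressed pools. The deepest fall in the list was that of smu1b, a spliceosome component related to SMU1. It had 75.6, 76.5, 83.2, 80, 78.4 and 66.8 CPM in stressed replicates 1 to 6 and 340.5, 353.9, 323.9, 376.7, 358.1 and 379.4 CPM in unstressed replicates 1 to 6. Stressed pools thus had 0.216 of the unstressed level (log2 -2.21, SE 0.09, adjusted p = 2.86e-14), with no overlap and little spread in either group. The gene si:ch211-132b12.7, which carries no functional name in the tables used here, had a fall of like size, with 51 to 74.3 CPM in stressed pools, against 264.8 to 324.3 CPM in unstressed pools (log2 -2.16, SE 0.10).

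Chromatin modifier genes passed near the shares over all genes, 11 higher (22.9%) and 10 lower (20.8%) of 48, against 20.3% and 16.5%. There were 13 higher and 2 lower with total-count scaling, and 7 higher without stressed replicate 4. TET1, which oxidises methylated cytosine, ranged from 5.97 to 34.8 CPM in stressed pools (median 20.5) and from 1.9 to 4.58 CPM in unstressed pools (median 2.97), a log2 change of 2.79 (SE 0.34, adjusted p = 1.62e-06). KDM6B, a demethylase of the repressive mark on lysine 27 of histone H3, ranged from 235.7 to 314.8 CPM in stressed pools, against 83.2 to 99.6 CPM in unstressed pools (log2 1.62, SE 0.11). The histone deacetylase gene HDAC5 had medians of 31.7 and 14 CPM with overlapping groups (adjusted p = 0.000675). KDM2B (ENSDARG00000036593), a demethylase found in Polycomb complexes, fell by 0.44 (SE 0.07), with 175.7 to 191.5 CPM in stressed pools and 230.8 to 272.1 CPM in unstressed pools. Outside this list, the transcription factor gene klf13 ranged from 8.67 to 38.3 CPM in stressed pools and from 2.55 to 3.86 CPM in unstressed pools (log2 2.94, SE 0.27).

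The molecular clock differed between stressed and unstressed fish in both arms. In its loop BMAL1 pairs with CLOCK or NPAS2 to switch on genes of the period, cryptochrome, REV-ERB and DEC families, whose proteins shut the pair down. Of 12 tested activating-arm genes 9 were higher and 1 lower, with a median log2 change of 1.28. BMAL1 (ENSDARG00000035732) ranged from 5.14 to 12.5 CPM in stressed pools (median 7.49) and from 0.705 to 2.36 CPM in unstressed pools (median 1.43), a log2 change of 2.42 (SE 0.25, adjusted p = 1.96e-07). Its partner npas2 ranged from 6.04 to 18.9 CPM in stressed pools and from 0.058 to 1.83 CPM in unstressed pools (log2 3.88, SE 0.36), and CLOCK (ENSDARG00000011703) had medians of 9.19 and 3.08 CPM (log2 1.56, SE 0.22).

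In the repressing arm 10 of 18 were lower and 5 higher, with a median of -0.44. NR1D1, the REV-ERB alpha gene, ranged from 41.2 to 64.3 CPM in stressed pools (median 53.8), against 120.8 to 228.9 CPM in unstressed pools (median 153.8), and fell by 1.60 on the log2 scale (SE 0.15). BHLHE41, the DEC2 gene, ranged from 154.5 to 248.7 CPM in stressed pools and from 581 to 797.4 CPM in unstressed pools (log2 -1.72, SE 0.12). PER1 (ENSDARG00000056885) had 30.3 to 40.2 CPM against 78.9 to 92.9 CPM (log2 -1.31, SE 0.09), and ciarta, related to the repressor CHRONO, fell by 1.51 (SE 0.10). The fall was deepest in nr1d4b, a further REV-ERB relative, with 0.514 to 2.56 CPM in stressed pools and 6.42 to 11.2 CPM in unstressed pools (log2 -2.64, SE 0.26). Among the 5 that rose were the cryptochrome genes cry3a (medians 227.5 and 67.3 CPM, log2 1.73, SE 0.14) and cry3b (31.99 to 38.7 CPM against 5.82 to 9.06 CPM, log2 2.32, SE 0.13), and nr1d2a (log2 1.99, SE 0.16), related to REV-ERB beta.

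Of 24 tested clock outputs and regulators 11 rose and 6 fell, with a median of 0.42. Among those that act on D-box promoter elements, the activator gene dbpb ranged from 65.1 to 138.7 CPM in stressed pools, against 284.4 to 528.7 CPM in unstressed pools (log2 -1.89, SE 0.17), and the repressor gene nfil3-5 from 47.1 to 69 CPM in stressed pools, against 11.7 to 21.9 CPM in unstressed pools (log2 1.74, SE 0.14). The photolyase gene cry5 had medians of 14.2 and 3.64 CPM (log2 1.91, SE 0.12), and cipca, a gene outside the lists that encodes a CLOCK-interacting repressor, 4.9 and 20.2 CPM (log2 -2.04, SE 0.16). Groups did not overlap for any of the clock genes named here. Since the time of day of dissection is not given, a difference in sampling time and an effect of stress on these genes cannot be told apart.

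**Figure D3:**
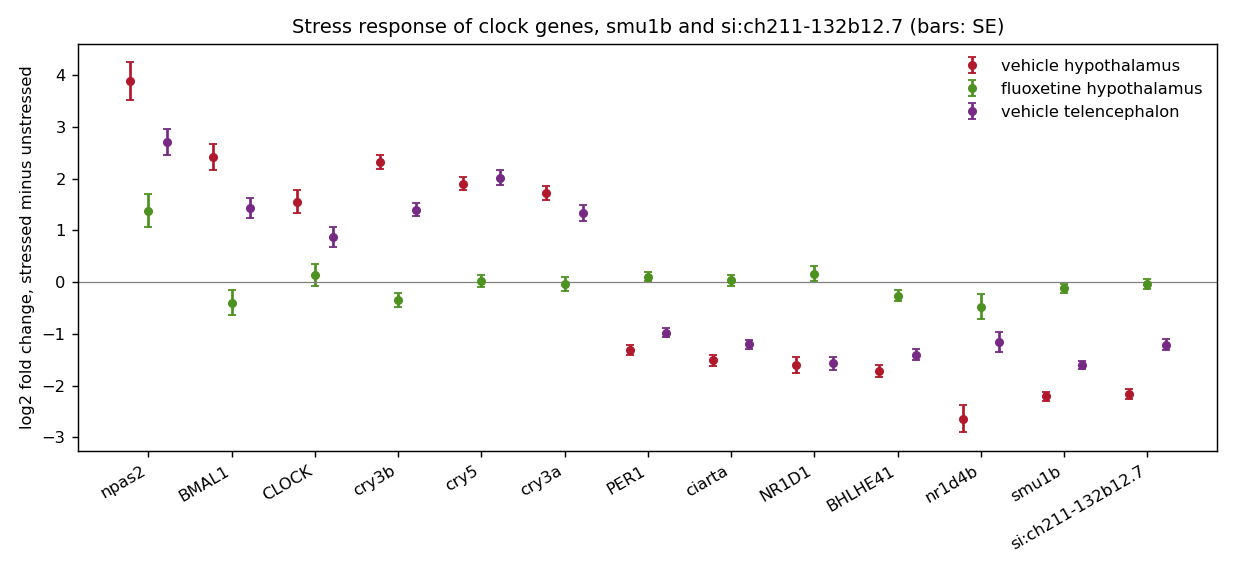
Log2 change (stressed minus unstressed, bars are the SE derived from the F statistic) of 11 clock genes, smu1b and si:ch211-132b12.7 in vehicle hypothalamus, fluoxetine hypothalamus and vehicle telencephalon, 6 libraries per group. In cry3b the vehicle hypothalamus lies at 2.32, the fluoxetine hypothalamus at -0.34 and the vehicle telencephalon at 1.40.

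Genes of neuronal excitability rose, with stressed replicate 1 below the rest of its group. Of 54 tested voltage-gated channel genes 37 rose and 1 fell, with a median log2 change of 0.78. KCNQ3, a subunit of the potassium channel behind the M-current, ranged from 6.68 to 34.9 CPM in stressed pools (median 22.6) and from 5.34 to 11.8 CPM in unstressed pools (median 9.46), a log2 change of 1.31 (SE 0.26, adjusted p = 0.000684). KCNA1 (ENSDARG00000017108), a delayed rectifier subunit of axons, rose by 1.30 (SE 0.29), and SCN8A (ENSDARG00000005775), a sodium channel of the axon initial segment, by 0.72 (SE 0.16). GABA-A and glutamate receptor genes rose in 23 of 62 and fell in 6 (3 without unstressed replicate 6), with a median of 0.21.

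Genes of synaptic transmission gave a mixed count. The metabotropic glutamate receptor gene GRM3 had medians of 29.3 and 9.85 CPM in stressed and unstressed pools (log2 1.54, SE 0.29). Of 27 genes of transmitter synthesis and transport 6 rose (22.2%) and 2 fell, close to the 20.3% that rose over all genes. The vesicular glutamate transporter gene SLC17A6 (ENSDARG00000001127) had medians of 117.2 and 49.9 CPM (log2 1.25, SE 0.24). Among 44 tested synaptic vesicle genes 16 rose and 2 fell, and 10 rose without stressed replicate 4. BSN (ENSDARG00000111110), a scaffold of the presynaptic active zone, ranged from 29.3 to 158.1 CPM in stressed pools and from 22.4 to 52.4 CPM in unstressed pools (log2 1.32, SE 0.28). Serotonin and dopamine receptor genes rose in 6 of 25 (24%, near the 20.3% over all genes) and fell in 1. Without stressed replicate 1, 12 of 27 rose and the median was 0.48 in place of 0.29. In the 37 channel risers stressed replicate 1 was the lowest stressed library 35 times, in the 23 receptor risers 22 times and in the 16 synaptic vesicle risers 15 times. Groups were fully apart in 1, 0 and 1 of these, and without stressed replicate 1 in 24, 13 and 10. Of all 3722 genes that rose, 634 had groups fully apart, and 2100 did without stressed replicate 1. Within libraries 1 to 24 the channel, receptor and synaptic vesicle genes that rose numbered 4, 2 and 0. Within libraries 25 to 48 they numbered 26, 16 and 7.

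**Figure D4:**
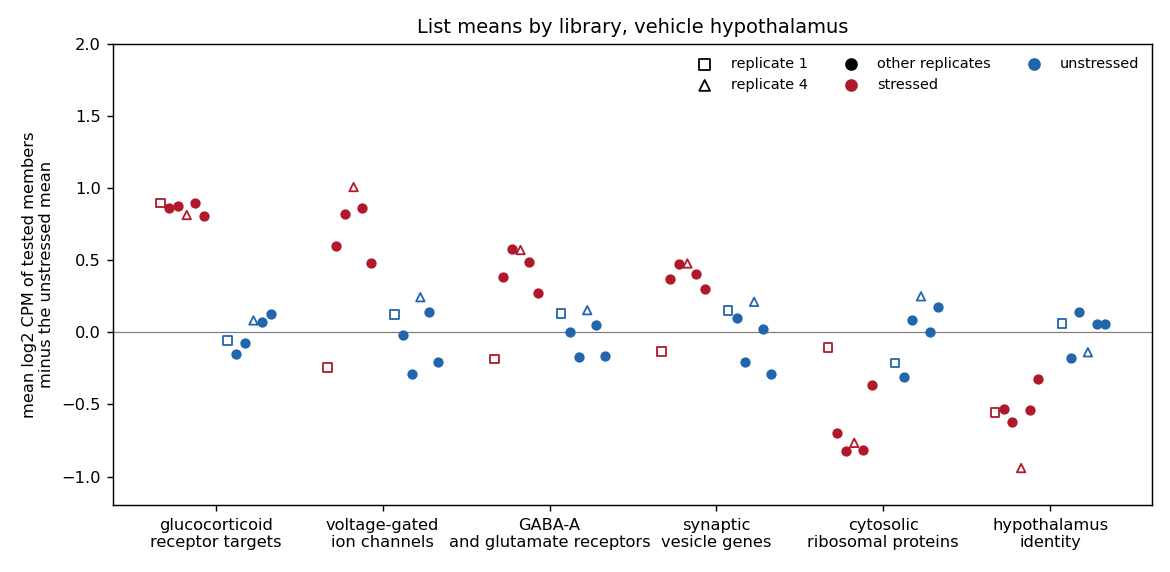
Mean log2 CPM of the tested members of 6 lists in each vehicle hypothalamus library, as the difference from the mean of the 6 unstressed libraries, with replicate 1 as squares and replicate 4 as triangles. Stressed replicate 1 lies with the stressed libraries for glucocorticoid receptor targets (0.90) and hypothalamus identity (-0.56), but at -0.24 for ion channels, where the other stressed libraries lie at 0.48 to 1.01, and at -0.11 for ribosomal proteins, where they lie at -0.83 to -0.36.

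Transcription factor genes that mark the hypothalamus fell. Of 41 tested hypothalamus identity genes 24 were lower and 1 higher in stressed fish, with a median log2 change of -0.67. In 18 of the 24 the groups did not overlap, against 897 of all 3040 genes that fell. NKX2-1, a homeobox gene of the tuberal region, ranged from 8.37 to 12.74 CPM in stressed pools (median 11) and from 20.8 to 29.1 CPM in unstressed pools (median 22.9), a fall by 1.19 on the log2 scale (SE 0.14, adjusted p = 7.43e-07). ISL1 ranged from 48.7 to 78 CPM in stressed pools, against 108.2 to 166 CPM in unstressed pools (log2 -1.21, SE 0.15), and HMX3 from 17 to 32.6 CPM against 49.7 to 75.6 CPM (log2 -1.18, SE 0.17). FEZF2, a zinc finger gene of the developing forebrain, ranged from 4.38 to 8.53 CPM in stressed pools and from 13 to 20.7 CPM in unstressed pools (log2 -1.51, SE 0.23). The homeobox gene DBX1 (ENSDARG00000001859) had medians of 0.935 and 3.56 CPM (log2 -1.92, SE 0.24). Falls were seen with and without stressed replicate 1 (24 and 26), in libraries 1 to 24 (17), in libraries 25 to 48 (17) and with total-count scaling (22). Stressed replicate 4 was the lowest stressed library in 17 of the 24 falls. Its list mean lay at -0.941 from the unstressed mean on the log2 scale, against -0.624 to -0.325 in the other stressed libraries. Without stressed replicates 1 and 4, 23 members fell and 3 rose. Cerebellar genes had their highest mean in stressed replicate 4 (1.486), and the part of neighbouring tissue in these falls was not tested. In pooled tissue fewer cells of a type and less RNA per cell cannot be told apart, here and for every marker below.

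Genes outside that list and linked to progenitors or other forebrain regions fell as well. GSX1 ranged from 18.7 to 37.1 CPM in stressed pools (median 32.8) and from 85.2 to 113.8 CPM in unstressed pools (median 92.1), a fall by 1.64 on the log2 scale (SE 0.18, adjusted p = 3.37e-07). FOXB2, a forkhead gene, ranged from 0.897 to 2.31 CPM in stressed pools and from 3.6 to 5.71 CPM in unstressed pools (log2 -1.79, SE 0.25). Among 22 tested telencephalon genes 10 fell and 1 rose, and DLX2 (ENSDARG00000079964), of GABA neuron precursors, had medians of 16.4 and 35.6 CPM (log2 -1.11, SE 0.18). Of 21 newborn neuron genes 7 fell and 2 rose. The proneural gene ascl1a ranged from 3.86 to 5.27 CPM in stressed pools, against 7.35 to 11.2 CPM in unstressed pools (log2 -1.03, SE 0.13). One of the 2 newborn neuron genes that rose was SOX11 (ENSDARG00000095743), with 318 to 640.1 CPM in stressed pools and 111.2 to 156.7 CPM in unstressed pools (log2 2.01, SE 0.14, adjusted p = 1.6e-10). Genes of DNA replication and mitosis fell in 3 of 27 (over all genes 16.5% fell).

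**Figure D5:**
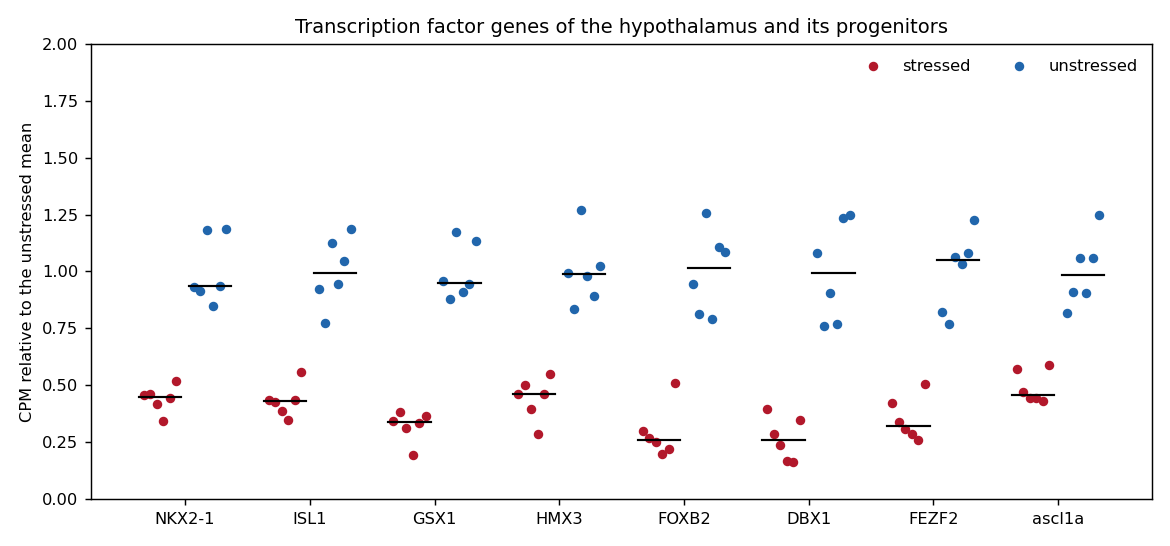
CPM of 8 transcription factor genes in each stressed and unstressed vehicle hypothalamus pool, relative to the mean of the 6 unstressed pools of that gene, with horizontal lines at the medians. No stressed pool reaches the lowest unstressed pool of its gene, and the NKX2-1 medians are 11 CPM in stressed and 22.9 CPM in unstressed pools.

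Feeding and reproductive genes held more rises than falls. Of 43 feeding and energy balance genes 12 rose (27.9%, against 20.3% over all genes) and 4 fell (9.3%, against 16.5%), with a median of 0.20. Without stressed replicate 5 the list had 9 rises and 1 fall, and the median was 0.09 without it, 0.05 without unstressed replicate 4 and -0.02 within libraries 1 to 24. GHSR (ENSDARG00000056230), a ghrelin receptor gene, ranged from 1.22 to 3.02 CPM in stressed pools and from 0.327 to 1.15 CPM in unstressed pools (log2 1.64, SE 0.26, adjusted p = 7.85e-05). NPY2R (ENSDARG00000089943), a neuropeptide Y receptor, rose by 1.43 (SE 0.22). Of 28 reproductive and hypophysiotropic genes 6 rose (21.4%, against 20.3% over all genes), DIO2 among them, and TRH fell. The kisspeptin receptor gene kiss1ra had medians of 5.28 and 1.68 CPM (log2 1.42, SE 0.24). Its ligand kiss1 was counted 162, 69, 18, 129, 4 and 0 times in stressed replicates 1 to 6, against 0, 1, 1, 7, 0 and 5 times in unstressed replicates 1 to 6. The kiss1 groups overlapped, and an adjusted p of 0.0245 (log2 4.43) was 0.0577 without stressed replicate 1 and 0.396 within libraries 25 to 48.

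Markers of vessels rose. Of 30 tested endothelial and blood-brain barrier genes 18 rose and 1 fell, with a median log2 change of 0.74, and the summed level was 323.1 to 408.7 CPM in stressed pools, against 204.6 to 308.2 CPM in unstressed pools. KDR, a receptor of vascular endothelial growth factor, ranged from 3.2 to 5.98 CPM in stressed pools (median 4.92) and from 0.634 to 1.15 CPM in unstressed pools (median 1.04), a log2 change of 2.25 (SE 0.25). The tight junction gene CLDN5 (ENSDARG00000043716) had medians of 3.56 and 1.22 CPM (log2 1.73, SE 0.23), and the lipid transporter gene MFSD2A (ENSDARG00000035909) 69.7 and 30.9 CPM (adjusted p = 9.98e-06). Radial glia and astroglia genes moved both ways, with 10 of 25 higher and 3 lower. Their log2 changes ran from -1.407 to 1.756, and groups did not overlap for 4 of the 10 and 2 of the 3. The glial GABA transporter gene SLC6A11 ranged from 17.3 to 63.2 CPM in stressed pools and from 8.46 to 18.8 CPM in unstressed pools (log2 1.76, SE 0.27). PTN, a secreted growth factor gene, ranged from 101.1 to 168.8 CPM in stressed pools, against 54.2 to 82.1 CPM in unstressed pools (log2 1.01, SE 0.11).

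Of 24 microglial genes 6 rose (25%, near the 20.3% over all genes) and 1 fell, and 13 rose with total-count scaling. MPEG1 (ENSDARG00000055290), a pore-forming protein gene of macrophages, ranged from 5.35 to 19.8 CPM in stressed pools and from 3.58 to 6.63 CPM in unstressed pools (log2 0.84, SE 0.23), and its highest value lay in stressed replicate 1. Markers of neighbouring or other tissues varied from pool to pool: the summed level of 28 retina genes was 59.1 to 1875 CPM in stressed pools and 70.1 to 1240 CPM in unstressed pools. The mean log2 level of the tested cerebellar genes, less the unstressed mean, was 1.486 in stressed replicate 4 and 1.197 in unstressed replicate 4. It was 1.039 in stressed replicate 3 and lay between -0.388 and 0.545 in the other vehicle pools. The 6 tested pituitary genes, POMC among them, summed to 79.7 to 109.4 CPM in stressed pools and 119.2 to 152.6 CPM in unstressed pools, with 2 lower. The part of these tissues in the results was not tested.

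Muscle genes showed the weight of 1 library. Of 24 tested skeletal muscle genes 6 fell and 2 rose. The parvalbumin gene pvalb4 ranged from 0.342 to 1.48 CPM in stressed pools and from 1.51 to 38.9 CPM in unstressed pools, where unstressed replicate 1 gave the highest value and the next was 3.54 CPM. Without unstressed replicate 1 the list had 25 tested members, of which 1 rose and none fell, and the adjusted p of pvalb4 was 0.187 in place of 0.0159. The creatine kinase gene ckma, with medians of 1.25 and 3.89 CPM in stressed and unstressed pools, gave 0.185 in place of 0.0153. ACTA1 (ENSDARG00000036371), an actin gene of the same list, rose: it ranged from 4.23 to 7.09 CPM in stressed pools, against 1.15 to 2.23 CPM in unstressed pools (log2 1.89, SE 0.21, adjusted p = 3.94e-07).

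The stress response of vehicle fish was then set against that of fish raised in fluoxetine, with no libraries shared between the 2 responses. The difference between the responses passed for 94 of 18380 genes (0.511%), 61 with a more positive and 33 with a more negative response in vehicle fish (edgeR's quasi-likelihood test, Benjamini-Hochberg adjusted). Without stressed replicate 1 the count was 956 (789 and 167), and it held all 94. Within fluoxetine fish 661 genes rose with stress and 531 fell, against 3722 and 3040 in vehicle fish. There 1 voltage-gated channel gene rose (list median 0.21) and 0 ribosomal protein genes fell (list median -0.26). In these 2 lists the difference between the responses passed for 0 genes. Immediate early genes rose in 17, the same number as in vehicle fish. In the activating arm of the clock 7 of 12 genes differed, in the repressing arm 10 of 18 and among clock outputs 5 of 24. BMAL1 had a log2 change of 2.42 (SE 0.25) in vehicle fish and -0.40 (SE 0.24) in fluoxetine fish, whose stressed and unstressed pools averaged 1.95 ± 0.57 and 2.58 ± 0.59 CPM (SD, n = 6 each). That difference was 2.82 (SE 0.35, adjusted p = 2.97e-05). For cry3b the difference was 2.67 (SE 0.19) and for cry5 1.89 (SE 0.16), and among genes that fell in vehicle fish it was -2.17 (SE 0.35) for nr1d4b, -1.76 (SE 0.20) for NR1D1 and -1.55 (SE 0.14) for ciarta. The time of day of dissection is not given for any group. Unlike sampling times and an effect of fluoxetine on these differences, or on those of other genes, therefore cannot be told apart.

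The 2 lowest p-values of that difference belonged to smu1b and si:ch211-132b12.7, both outside the clock lists. The limit of unknown sampling time applies to them and to the other genes of this paragraph as well. In fluoxetine fish smu1b averaged 366 ± 34.4 CPM in stressed pools and 399 ± 61.4 CPM in unstressed pools (SD, n = 6 each; log2 -0.12, SE 0.09), so that its response differed by -2.09 (SE 0.13, adjusted p = 1.43e-10). For si:ch211-132b12.7 the fluoxetine pools averaged 254 ± 28.2 CPM with stress and 260 ± 25.6 CPM without it, and the difference was -2.12 (SE 0.13, adjusted p = 1.85e-10). FBXO25, an F-box gene of ubiquitin ligases, fell by 1.73 (SE 0.10) in vehicle fish and by 0.60 (SE 0.09) in fluoxetine fish (difference -1.13, SE 0.13). HSF2 fell by 0.71 (SE 0.07) in vehicle fish and had a change of -0.02 (SE 0.07) in fluoxetine fish (difference -0.69, SE 0.10, adjusted p = 0.000262). Among 43 receptor targets 18 rose and 1 fell in fluoxetine fish, with a median of 0.34. In vehicle fish 28 rose and 3 fell, with a median of 0.69. The difference passed for 2 targets, both PER1 entries that the clock list also holds. It did not pass for KLF9 (0.97, SE 0.36, adjusted p = 0.222), FKBP5 (0.52, SE 0.33, adjusted p = 0.458) or the reporter (0.23, SE 0.47, adjusted p = 0.85). Nor did the difference pass for NKX2-1, which fell by 1.19 in vehicle fish and by 0.57 in fluoxetine fish (difference -0.62, SE 0.19, adjusted p = 0.163), or for ISL1 (-0.55, SE 0.22, adjusted p = 0.241).

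Set against the telencephalon of vehicle fish, the response differed for 98 of 19144 genes (0.512%), 30 more positive and 68 more negative in the hypothalamus. By list, the most genes differed among immediate early genes (8 of 51) and in the repressing arm of the clock (4 of 18). The labels do not say whether both regions came from the same fish. LYPD6, of a family that modulates nicotinic receptors, had a log2 change of -0.32 (SE 0.20) in the hypothalamus and 1.47 (SE 0.16) in the telencephalon, a difference of -1.79 (SE 0.24, adjusted p = 8.99e-06). EGR3, an immediate early transcription factor gene, had 44.9 to 64 CPM in stressed and 44 to 56.9 CPM in unstressed hypothalamus (log2 0.13, SE 0.10), and rose by 1.28 (SE 0.09) in the telencephalon (difference -1.15, SE 0.12, adjusted p = 6.58e-08). GPSM2, a spindle orientation gene, had -0.28 (SE 0.11) and 1.25 (SE 0.11), and ACTA1 rose by 1.89 in the hypothalamus and 3.38 in the telencephalon (difference -1.49, SE 0.29).

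In the opposite direction, CDC42EP3, a CDC42 effector gene, rose by 0.56 (SE 0.11) in the hypothalamus and fell by 0.62 (SE 0.10) in the telencephalon, a difference of 1.18 (SE 0.15, adjusted p = 1.31e-06). The gene tmem264 ranged from 10.2 to 16.7 CPM in stressed and from 2.54 to 5.88 CPM in unstressed hypothalamus (adjusted p = 7.85e-07), with a telencephalic change of -0.14 (SE 0.14) and a difference of 1.64 (SE 0.20). Of the hypothalamus identity genes 2 of 41 differed: NKX2-1 fell by 1.19 in the hypothalamus, against -0.26 (SE 0.12) in the telencephalon (difference -0.93, SE 0.17, adjusted p = 0.0013). KDM6B rose by 1.62 (SE 0.11) and 2.36 (SE 0.09) in the same order (difference -0.74, SE 0.12). The fall of smu1b was deeper by 0.61 (SE 0.11) in the hypothalamus, with a log2 change of -2.21 there and -1.61 in the telencephalon, and the rise of cry3b larger by 0.92 (SE 0.18). KLF9 rose by 4.21 and 4.18 in the hypothalamus and telencephalon, a difference of 0.04 (SE 0.37, adjusted p = 0.993).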

How the data were processed

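The read counts per gene were deposited by the authors as whole numbers, 1 column per library. Per the labels' protocols, RNA was column-extracted and 250 ng entered a stranded kit that selects polyadenylated RNA. According to the submitters' processing notes, bcl2fastq 2.17.1.14, cutadapt, STAR 2.5 and DESeq2 were used. How reads were assigned to genes, with which strand setting, build and annotation, is not given in the sources used here, so overlapping or antisense genes cannot be told apart.

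Of 31902 entries 31901 are Ensembl identifiers, of which 29178 had a symbol in the reference table. Because 6136 entries share a symbol, such genes are printed with their identifier, and reads may split between near-identical copies. Members, gene lists and tests were chosen with earlier results of these data known. The 44 lists held 798 symbols, of which 730 matched.

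The 24 hypothalamus libraries were fitted as 4 groups with edgeR 4.0.16 under R 4.3.3, with TMM scaling, the default expression filter, robust quasi-likelihood F-tests and Benjamini-Hochberg adjustment (threshold 0.05). The region difference came from the same model on 48 adult libraries. CPM use TMM-scaled library sizes, and log2 CPM for principal components and library means a prior count of 2. All log2 changes are edgeR's. Each SE was derived from the test, as the size of the log2 change divided by the square root of its F statistic. The fit was checked on simulated data in which few genes changed and each gene varied independently. That check cannot speak to scaling or to shifts that many genes share.

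Named genes are d4EGFP and stress axis genes, up to 6 changed and 2 highly expressed members per list, the 12 largest rises and falls without overlap, and the 6 lowest p of each difference, of which part is printed. Lists are described by counts and medians, with no set test. Alternatives were DESeq2 1.42.0, other scalings, no filter, other library sets, a replicate block and each vehicle hypothalamus replicate left out. Replicates of a group differed by at least 6.39 times counting noise, so none was a repeat count of the same library. This check cannot tell separate pools from libraries prepared again from 1 pool.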

Additional observations from a re-analysis of the deposited data

Results flagged for a closer look

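Among the 105 named genes, 17 of 210 groups of 6 libraries held a library far from its neighbours, 13 of them stressed groups and 4 unstressed groups. Chance flags about 1 in 20 groups. The same libraries recur for every gene, so the flags are not independent of each other. Stressed replicate 4 lay apart on the low side for si:dkey-201c13.2 at 26.3 CPM, EPAS1 at 25.1, DNAJB11 at 52.7, nr1d2a at 199, BHLHE41 at 154, ciarta at 39.7, dbpb at 65.1 and GSX1 at 18.7 CPM. Stressed replicate 1 lay apart for POMC (12.9 CPM, low), DDIT4 (174 CPM, high) and MPEG1 (19.8 CPM, high), and stressed replicate 6 for avp (11 CPM, high) and FOXB2 (2.31 CPM, high). In the unstressed group the library apart was replicate 1 for pvalb4 (38.9 CPM) and ckma (48.6 CPM), replicate 4 for HSPA8 ENSDARG00000037403 (97.3 CPM) and replicate 6 for ciarta (188 CPM), each of them high.

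The stress response differed between vehicle and fluoxetine hypothalamus, by edgeR's test of the difference itself, for 19 named genes. On the log2 scale, vehicle minus fluoxetine, it was more positive for BMAL1 (2.82), cry3b (2.67), npas2 (2.5), cry5 (1.89), cry3a (1.76), CLOCK (1.42), nfil3-5 (0.98) and PTN (0.72). It was more negative for nr1d4b (-2.17), si:ch211-132b12.7 (-2.12), smu1b (-2.09), cipca (-1.77), NR1D1 (-1.76), ciarta (-1.55), dbpb (-1.55), BHLHE41 (-1.47), PER1 (-1.42), FBXO25 (-1.13) and HSF2 (-0.69).

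Between vehicle hypothalamus and vehicle telencephalon the responses of 13 named genes differed. The difference, hypothalamus minus telencephalon, was 1.64 for tmem264, 1.18 for CDC42EP3 and 0.92 for cry3b. It was -2.46 for FOXB2, -1.79 for LYPD6, -1.53 for GPSM2, -1.49 for ACTA1, -1.48 for nr1d4b, -1.15 for EGR3, -0.95 for si:ch211-132b12.7, -0.93 for NKX2-1, -0.74 for KDM6B and -0.61 for smu1b.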

How the results depend on the processing

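The count of 6762 genes changed by stress was within 1.5 times of itself with median-ratio size factors (6782), DESeq2 (7197), no filter (5971), the 2 vehicle groups alone (5515), a term for the library number range (7423), total counts (6139), without stressed replicates 1 and 4 (6886) and with each replicate left out in turn (5416 to 7540). It was 1645 in libraries 1 to 24 alone and 3695 in libraries 25 to 48 alone. The 94 genes whose response differed from fluoxetine fish became 285 with DESeq2, 384 without stressed replicates 1 and 4, and 70 to 956 with each vehicle replicate left out, the highest without stressed replicate 1. The 98 genes that differed from the telencephalon became 150 with DESeq2 and 77 to 150 with each vehicle hypothalamus replicate left out. No telencephalon library was left out. The alternatives with total counts and those without replicates 4, with or without replicate 1 for the fluoxetine difference, were chosen after seeing the data. Beyond fewer pools in the subsets, the cause of these shifts was not tested.

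Replicate numbers gave little sign of pairing: same-number correlations of the 2 vehicle groups ran from -0.15 to 0.57, with 1 of 6 above 0.1. That pair was replicate 4, where each library was the best match of the other. The labels do not say whether pools of the same number belonged together, and these correlations cannot settle it. With the replicate block 7278, 95 and 150 genes passed in the 3 comparisons.

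Of 105 named genes 97 passed and 75 of these did so under every alternative. CRHBP, at -0.01, changed sign but passed under none: 0.02 without the filter, -0.04 to 0.05 with a replicate left out, 0.05 without stressed replicates 1 and 4, 0.08 with total counts and 0.03 without replicates 4. The calls of kiss1, pvalb4 and ckma are lost without 1 pool, and that of oxt without any of 4. The differences of CLOCK (1.32 to 1.38), PTN (0.65 to 0.72) and FOXB2 (-2.45 to -2.36) moved little where their adjusted p passed 0.05, at 0.0505 to 0.0741. Low counts limit genes such as kiss1, avp and nr1d4b.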

Other observations

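Nuclear hormone receptor genes beyond those of the stress axis moved both ways, 15 higher (31.2%) and 10 lower (20.8%) of 48 tested, against 20.3% higher and 16.5% lower over all genes (edgeR's quasi-likelihood test, adjusted p 0.05). The list shares REV-ERB genes with the repressing arm of the clock, so the 2 are not separate counts. Its deepest fall, -2.64 on the log2 scale, is that of nr1d4b. Of the 15 that rose, stressed replicate 1 was the lowest stressed library in 13, and within libraries 1 to 24 the split was 4 higher and 9 lower. Proteasome subunit genes passed in 7 of 46 and lysosome genes in 4 of 50, against 36.8% over all genes. Proteasome falls numbered 5, with 9 without stressed replicate 1 and 2 without stressed replicate 2. Cholesterol synthesis genes rose in 5 of 26 and fell in 2, but 2 rose without stressed replicate 5, 0 within libraries 1 to 24 and 1 within libraries 25 to 48.

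Markers of other cell types gave few calls. Oligodendrocyte genes rose in 2 of 16 and fell in 1, with summed levels of 8133 to 23440 CPM in stressed pools and 5856 to 15590 CPM in unstressed pools. Erythrocyte genes rose in 1 of 7, ependymal genes in 1 of 17 with 2 lower, and liver genes fell in 1 of 4. Cerebellar genes rose in 2 of 20 with 2 lower and a median log2 change of 0.498, and their level varied between pools as given above. Of 13 protein genes of the mitochondrial genome 3 fell, and 1 to 5 fell as single libraries were left out.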
